A study of Mus musculus with 5 samples.

Results

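Ribosome biogenesis and RNA polymerase I genes were examined in mouse KLS cells. This sorted fraction, named for c-Kit and Sca-1 on cells without lineage markers, contains blood-forming stem cells and multipotent progenitors. The 36 genes were given by symbol, and every probe set whose platform annotation gives 1 of these symbols as its only gene was taken. All 36 were found, through 80 of 45037 probe sets, with 1 to 7 probe sets for each gene. Where 1 value for a gene was needed, its probe set with the highest mean over all arrays was used, which gave 36 of 18193 genes. Levels are log2 of the deposited intensities, and each difference is the deficient mean minus the control mean of these log2 values.

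The ribosome is made in the nucleolus. RNA polymerase I copies the ribosomal DNA repeats into a long precursor RNA, small nucleolar ribonucleoproteins (snoRNPs) modify and guide the cutting of that precursor, and separate sets of assembly factors build the small and the large subunit. MYC is a well-known activator of these genes, and the retinoblastoma protein is known to restrain RNA polymerase I by binding its factor UBF. Dividing blood progenitors make more ribosomes than resting stem cells.

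The study compared cells that lack the 3 retinoblastoma family proteins with control cells. The 2 control arrays, titled wild type, came from mice of genotype Rb +/+ p130 +/+ p107+/-, so the controls already carried 1 lost copy of p107. The 3 deficient arrays came from mice of genotype Rb -/- p130 -/- p107-/-. Floxed alleles were recombined with Mx1-Cre, a recombinase driven by an interferon-responsive promoter that is not limited to stem cells, at 6 weeks of age, and KLS cells were sorted 2 months later. The samples are labelled as untreated, and the agent that induced the recombinase is not named. Nothing in the labels ties an array to its own mouse or pool of mice, and the p-values therefore describe spread among these arrays, which may be technical. The study made 6 hybridisations and left out 1 for high background and unusual control probe sets.

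The arrays had median intensities between 26.1 and 26.7. Of the targeted genes, Rbl1 (p107) read 8.33 and 7.16 on the control arrays and 5.15, 4.25 and 4.73 on the deficient arrays, and fell by 3.04 on the log2 scale (limma, adjusted p = 0.0266). Rb1 differed by -0.36 (SE 0.32, adjusted p = 0.664) and Rbl2 (p130) by -0.46 (SE 0.23, adjusted p = 0.374), and for both the groups of arrays overlapped. The position of these probes against the recombined exons was not analysed here; probes lying elsewhere in the transcript cannot check a deletion. Of the sort's own markers, Kit, Cd34, Flt3, Slamf1 and Cd48 were measured and Ly6a, which encodes Sca-1, was not analysed here; 0 of 5 passed the threshold (limma; also 0 at an unadjusted p under 0.05), and the summed intensity was 9226 to 10280 in controls and 8764 to 11188 in deficient cells.

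Markers of some other cell types moved with the groups, and those of others did not. All 9 measured neutrophil granule genes fell past the threshold, against 1.41% of all genes, and their summed intensity was 49616 to 60654 on the control arrays and 1317 to 2336 on the deficient arrays. Of 8 B and plasma cell genes, 3 fell, with sums of 14937 to 28475 in controls and 1012 to 1255 in deficient cells. Of the other lists, 1 of 5 macrophage and dendritic cell genes and 2 of 7 T and NK cell genes fell, 1 of 5 megakaryocyte genes rose, and 0 of 5 erythroid genes passed (limma; also 0 at an unadjusted p under 0.05). Their sums in controls and deficient cells were 4191 to 6311 and 1527 to 2033 (macrophage and dendritic), 1612 to 2445 and 2332 to 2951 (T and NK), 3964 to 4445 and 4187 to 5520 (megakaryocyte), and 3427 to 5049 and 1206 to 6250 (erythroid). Of the 7 T and NK cell genes, 6 had lower means and 1 a higher mean (0.63), with a median difference of -1.43. Their sum therefore does not follow most of these genes. All 5 macrophage and dendritic cell genes were lower at an unadjusted p under 0.05 (limma), against 9.86% of all genes. The deposited intensities have no 0, so no marker could be read as absent. In RNA from a bulk sort, fewer cells of a type and less RNA per cell cannot be told apart. Of 9 genes of dividing cells, 3 rose (Bub1, Mki67 and Plk1), against 0.830% of all genes called higher. All 9 had higher means, against 48.1% of all genes, with a median difference of 0.73. At an unadjusted p under 0.05 (limma), 7 of the 9 were higher, against 8.79%. Every deficient array lay above both controls for 7 of the 9, against 16.5%. The dividing-cell sums were 15555 to 19033 in controls and 24588 to 28081 in deficient cells. The part that any of these had in the results on ribosome genes was not tested. Between the controls, the sums went both ways. Control 2 read above control 1 in the neutrophil, B and plasma cell, T and NK cell, erythroid, megakaryocyte and dividing-cell sums, as it did for 30 of the 36 ribosome genes. It read below control 1 in the macrophage and dendritic cell sum (4191 against 6311), in the sum of the sort's own markers (9226 against 10280) and in that of the MYC network genes (6156 against 6944).

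Promoter sequences were looked up to see which of the genes carry letters that match a MYC or an E2F element near the start. RefSeq promoters (GRCm38.p6, 250 bases before to 50 after each start) were held for 30 of the 36 genes, and both strands were searched. The E-box CACGTG, the element bound by MYC with MAX, was present for 6 of 30 genes (20.0%), against 8.09% of all 27025 genes in the table. The E2F element, searched as TTTCCCGC, TTTCGCGC, TTTGCCGC or TTTGGCGC, was present for 3 of 30 (10%), against 2.60%. No gene held both. No test was made of these shares, and a match is not evidence of binding.

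The sites are shown on the strand of the gene, 5′ to 3′, with the match in capitals and up to 10 bases on either side, because they belong to genes whose levels are given below. The first 7 are E-boxes and the last 3 are E2F matches, of which those of Ncl and Nop58 lie on the opposite strand.
Rrn3, chr16:13780474-13780499 (plus strand): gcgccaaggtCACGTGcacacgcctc
Rrn3, chr16:13780641-13780666 (plus strand): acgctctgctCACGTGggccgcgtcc
Mybbp1a, chr11:72441357-72441376 (plus strand): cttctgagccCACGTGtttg
Wdr43, chr17:71616222-71616247 (plus strand): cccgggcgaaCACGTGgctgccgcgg
Utp20, chr10:88826765-88826787 (minus strand): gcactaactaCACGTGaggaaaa
Pes1, chr11:3963967-3963992 (plus strand): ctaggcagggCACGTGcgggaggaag
Nop2, chr6:125131813-125131838 (plus strand): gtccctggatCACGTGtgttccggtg
Ncl, chr1:86359662-86359689 (minus strand): cacacaagccGCGCCAAActcgcccgtc
Nolc1, chr19:46075720-46075747 (plus strand): atttgcaagtTTTCCCGCctcggacagg
Nop58, chr1:59684888-59684915 (plus strand): tctactgtggGCGGGAAAaacccggaaa

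As a group, the ribosome genes read higher in the deficient cells, by small amounts. The mean was higher for 34 of 36 genes (94.4%), against 48.1% of all genes and 49.9% of the 11600 genes whose probe set was brighter than the median probe set, as all 36 were. The median difference was 0.33, against -0.01 over all genes. The differences ran from -0.09 for Polr1c to 0.82 for Rrp12, and 8 of 36 (22.2%) were above 0.5, against 9.23% of the brighter genes. The lower means were those of Polr1c and Nip7. At an unadjusted p under 0.05 (limma), 17 genes were higher and 0 lower, where 8.79% of all genes and 13.2% of the brighter genes were higher. Every deficient array lay above both control arrays for 22 genes (61.1%), against 16.5% of all genes and 21.0% of the brighter ones.

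After Benjamini-Hochberg adjustment over all genes, 1 member rose, Utp20, against 0.830% of genes called higher, and 35 did not pass. When every probe set was fitted with limma, 0 of the 80 passed, against 0.164% called higher. At an unadjusted p under 0.05, 28 probe sets were higher, against 7.28%, and 2 lower, against 6.82%. The mean was higher for 68 of the 80 probe sets, against 50.5% of all probe sets, and for 38 every deficient array lay above both control arrays, against 15.4%. Of the 72 probe sets brighter than the median, 64 had a higher mean, against 52.4% of all such probe sets. At an unadjusted p under 0.05 (limma), 26 of the 72 were higher, against 13% of all such probe sets. For 36 of the 72 every deficient array lay above both control arrays, against 20.8%.

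**Figure D1:**
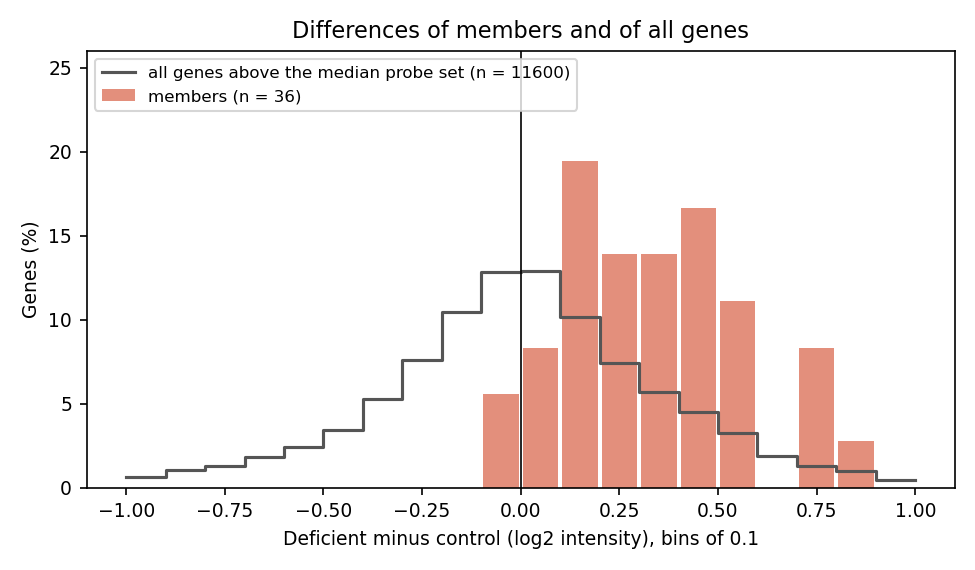
Share of genes (vertical axis, %) in each bin of 0.1 of the difference, deficient minus control, in log2 intensity (horizontal axis); bars stand for the 36 ribosome genes and the line for the 11600 genes above the median probe set, of which 4.39% lie outside the range drawn. The bars lie mostly to the right of 0, with 34 of 36 genes above it, while the line is centred close to 0.

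Control 1 was the array that stood apart most often. It was the lowest of the 5 arrays for 28 of 36 genes, and the median gene read -0.32 there relative to its mean over the 5 arrays. Control 2 read -0.06, and the deficient arrays 0.17, 0.11 and 0.10. The 2 controls differed from each other by a median of 0.24 over the ribosome genes and 0.01 over all genes. Every deficient array lay above control 1 for 33 genes and above control 2 for 23, and the shares of all genes for these counts are not given. Without control 1 the median difference was 0.24, against -0.015 over all genes, and the mean was higher for 30 genes. Without control 2 the median was 0.47, against -0.002 over all genes, and all 36 means were higher. Over the 5 fits with 1 array left out, 30 genes had a difference above 0 in every fit. The median over all genes was below 0 in each of these fits, so most genes did not have a higher mean. The share of all genes above 0 in every fit is not given, but it cannot exceed the share in any 1 fit.

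**Figure D2:**
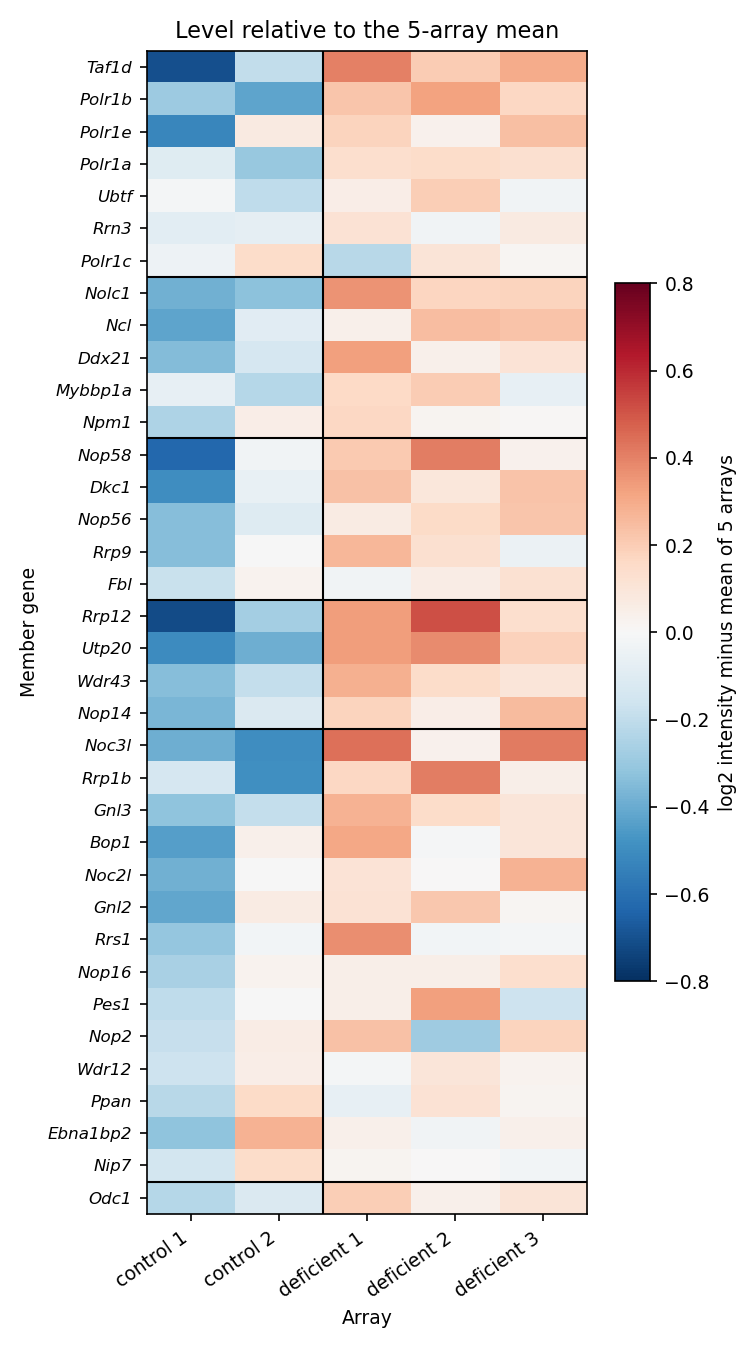
Log2 intensity of each ribosome gene (rows, grouped by role) on each array (columns) minus its mean over the 5 arrays; red is above and blue below that mean. Control 1 is the lowest array for 28 of the 36 genes, and control 2 for 6.

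Most RNA polymerase I subunits and initiation factors read higher without passing the adjusted threshold. Of 7 genes, 6 had higher means, against 49.9% of the brighter genes, and 3 were higher at an unadjusted p under 0.05 (limma), against 13.2%. The median was 0.34, and 0 passed the adjusted threshold. Polr1b, the second-largest subunit of RNA polymerase I, read 9.19 and 9.06 on the control arrays and 9.70, 9.80 and 9.65 on the deficient arrays. Both controls lay below every deficient array, and the difference was 0.59 (SE 0.11, adjusted p = 0.0634). Taf1d, a subunit of the promoter selectivity factor SL1, read 8.51 and 9.02 on the control arrays and 9.62, 9.42 and 9.51 on the deficient arrays. The groups did not overlap there either, control 1 was the lowest, and the difference was 0.75 (SE 0.17, adjusted p = 0.0895), with values of 0.50 to 1.00 when 1 array was left out. Taf1d has 7 probe sets, whose differences ran from -0.07 to 1.13; the extremes were a probe set with overlapping groups and one dimmer than the median probe set.

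Polr1a, the largest subunit of the enzyme, read 8.82 and 8.61 on the control arrays and 9.05, 9.06 and 9.04 on the deficient arrays on its brightest probe set. The deficient arrays lay close together and above both controls, with a difference of 0.34 (SE 0.11, adjusted p = 0.190). Another Polr1a probe set, brighter than the median but far dimmer than the first, read 6.03 and 5.97 on the control arrays and 5.89, 6.11 and 5.90 on the deficient arrays, and its groups overlapped (difference -0.03). Polr1c, a subunit shared by RNA polymerases I and III, read 11.07 and 11.25 on the control arrays and 10.89, 11.21 and 11.12 on the deficient arrays. Its groups overlapped and the mean was lower (difference -0.09, SE 0.14, adjusted p = 0.833), as on its other probe set (-0.27). Polr1e, the PAF53 subunit, differed by 0.37 (SE 0.19, adjusted p = 0.381), with control 1 low and control 2 among the deficient arrays, so that the difference was 0.08 without control 1. Rrn3, the factor TIF-IA that brings the polymerase to the promoter, differed by 0.13, and Ubtf, which encodes UBF, by 0.18 on its brighter probe set and -0.52 on one dimmer than the median.

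All 5 genes of abundant nucleolar proteins had higher means, against 49.9% of the brighter genes. At an unadjusted p under 0.05 (limma) 3 were higher, against 13.2%, and 0 passed the adjusted threshold, with a median of 0.40. Nolc1, a phosphoprotein that chaperones snoRNPs, read 9.25 and 9.30 on the control arrays and 9.99, 9.80 and 9.81 on the deficient arrays. The controls were close together and the groups were well apart, with a difference of 0.59 (SE 0.12, adjusted p = 0.0659). Its other probe sets differed by 0.30 and 0.15. Ncl, which encodes nucleolin, a histone and pre-rRNA binding protein, read 11.76 and 12.09 on the control arrays and 12.22, 12.43 and 12.41 on the deficient arrays. Every deficient array was higher, the difference was 0.43 (SE 0.15, adjusted p = 0.191), and all 5 Ncl probe sets had higher means, from 0.26 to 0.65. Npm1, which encodes the nucleolar chaperone nucleophosmin, read 13.15 and 13.45 on the control arrays and 13.56, 13.42 and 13.40 on the deficient arrays. Control 2 lay above 2 of the 3 deficient arrays, and the difference was 0.16 (SE 0.13, adjusted p = 0.625). The helicase gene Ddx21 differed by 0.40 (SE 0.14, adjusted p = 0.199) and Mybbp1a, which encodes a MYB-binding nucleolar protein, by 0.25 (SE 0.13, adjusted p = 0.401), both with groups that did not overlap.

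**Figure D3:**
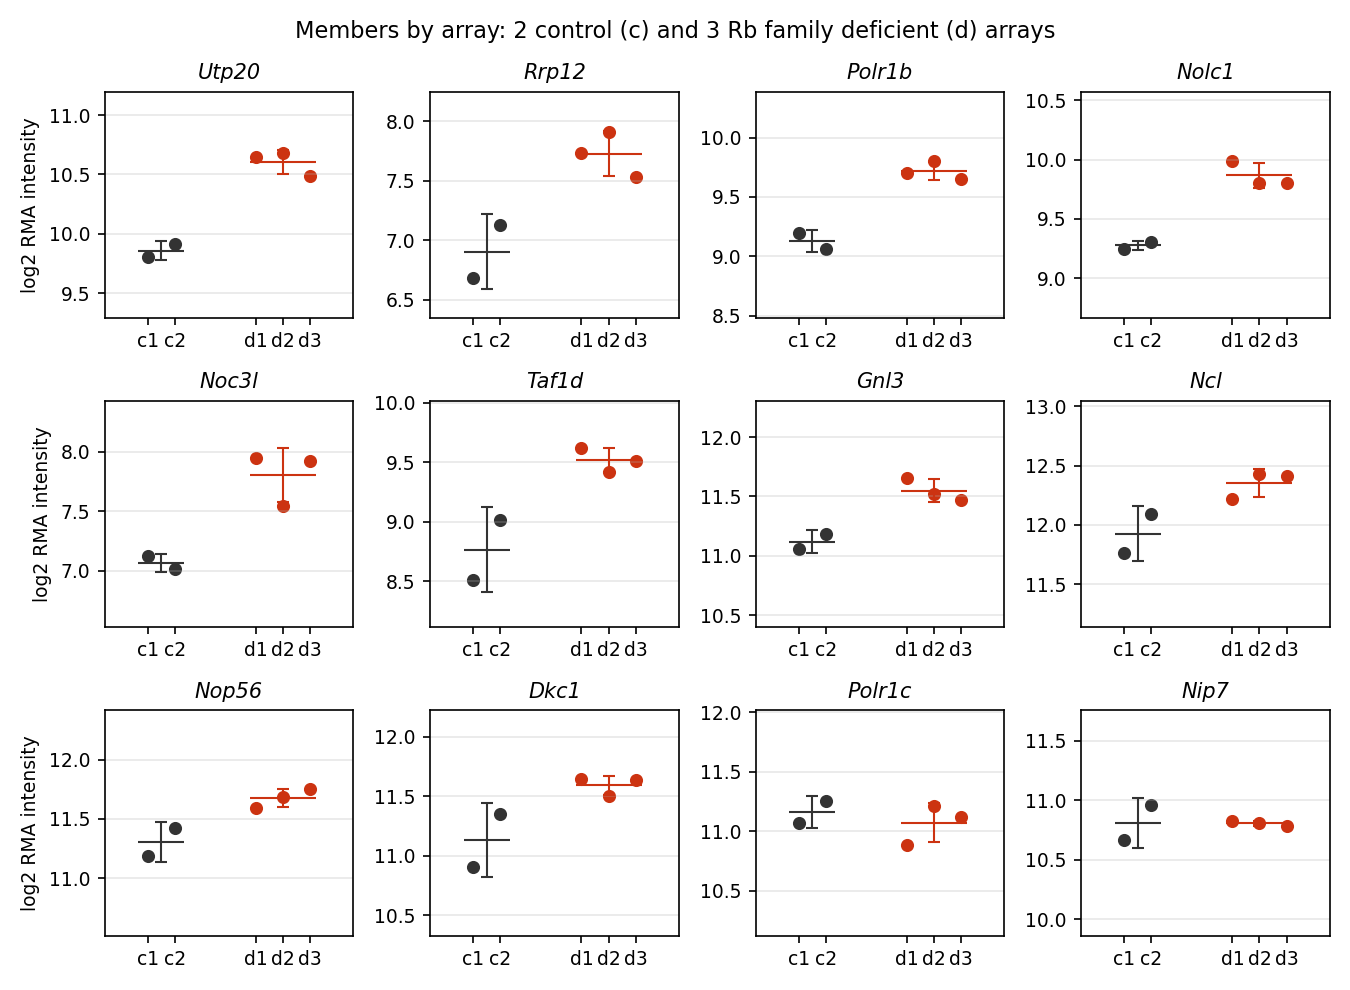
Log2 RMA intensity (vertical axis, each panel spanning the same 1.9 log2 units) of 12 ribosome genes on each of the 2 control (c1, c2) and 3 deficient (d1 to d3) arrays; points are arrays, and the horizontal line and bar are the mean and SD of a group. The groups do not overlap in the panels from Utp20 to Dkc1, and they do for Polr1c and Nip7. Of all 36 genes, 22 (61.1%) have every deficient array above both controls, against 21.0% of genes above the median probe set. The panels drawn therefore hold a larger share of separated groups than the 36 genes do.

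The snoRNP genes, whose products modify the precursor RNA, all had higher means, 5 of 5, against 49.9% of the brighter genes. At an unadjusted p under 0.05 (limma) 3 were higher, against 13.2%, and 0 passed the adjusted threshold, with a median of 0.37. Nop56, a core protein of the box C/D snoRNPs that guide methylation, read 11.18 and 11.42 on the control arrays and 11.59, 11.68 and 11.75 on the deficient arrays. The groups did not overlap, and the difference was 0.37 (SE 0.13, adjusted p = 0.187). Dkc1, which encodes dyskerin, the pseudouridine synthase of box H/ACA snoRNPs and of telomerase, read 10.91 and 11.35 on the control arrays and 11.64, 11.50 and 11.63 on the deficient arrays. Control 1 was the lowest, and the difference was 0.46 (SE 0.16, adjusted p = 0.194). A dimmer Dkc1 probe set read 7.46 and 7.91 on the control arrays and 9.21, 8.88 and 8.94 on the deficient arrays, and its difference of 1.32 was the largest of the 80 probe sets (adjusted p = 0.0551 among all probe sets). Nop58, the partner of Nop56, differed by 0.55 (SE 0.21, adjusted p = 0.238), but by 0.25 without control 1 and 0.85 without control 2. Fbl, which encodes the methyltransferase fibrillarin of the same particles, read 12.22 and 12.43 on the control arrays and 12.37, 12.45 and 12.52 on the deficient arrays. Those groups overlapped, and the difference was 0.12 (SE 0.12, adjusted p = 0.691). Rrp9, a protein of the U3 snoRNP, differed by 0.29 (SE 0.16, adjusted p = 0.411).

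Small subunit assembly was the role with the highest median, 0.59 over 4 genes. For all 4 every deficient array lay above both controls, against 21.0% of the brighter genes. All 4 were higher at an unadjusted p under 0.05 (limma), against 13.2%. Of the 46 other small subunit genes compared below, these shares were 45.7% and 19.6%. Utp20, a large scaffold protein of the processome that folds the small subunit precursor, read 9.80 and 9.91 on the control arrays and 10.64, 10.68 and 10.49 on the deficient arrays. The groups lay well apart compared with the spread within each, and Utp20 rose by 0.75 (SE 0.12, adjusted p = 0.0399). Its adjusted p was 0.0664 when all probe sets were fitted, and with any array left out of the fit over genes it was 0.0903 to 0.149, with a difference of 0.69 to 0.80. Rrp12, which is needed for export of the small subunit, read 6.68 and 7.13 on the control arrays and 7.74, 7.91 and 7.53 on the deficient arrays. It was the dimmest of the 4 probe sets; the difference was 0.82 (SE 0.18, adjusted p = 0.0843) and ran from 0.60 to 1.04 with 1 array left out. Wdr43 differed by 0.44 (SE 0.12, adjusted p = 0.123), and Nop14 read 8.29 and 8.55 on the control arrays and 8.84, 8.72 and 8.92 on the deficient arrays, a difference of 0.41 (SE 0.13, adjusted p = 0.174). Both encode processome proteins. The second Wdr43 probe set differed by 0.04.

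Large subunit assembly was the role with most genes, and its median was the lowest of the 6 roles. Of 14 genes, 13 had higher means, against 49.9% of the brighter genes, and 3 (21.4%) were higher at an unadjusted p under 0.05 (limma), against 13.2%. The median of 0.23 was 0.06 without control 1, and 0 genes passed the adjusted threshold. Noc3l, a factor that accompanies large subunit precursors out of the nucleolus, read 7.12 and 7.01 on the control arrays and 7.95, 7.54 and 7.92 on the deficient arrays. The groups did not overlap and the difference was 0.74 (SE 0.16, adjusted p = 0.0782), while a second probe set of like brightness differed by 0.13. Gnl3, which encodes nucleostemin, a nucleolar GTPase abundant in stem and dividing cells, read 11.05 and 11.19 on the control arrays and 11.65, 11.52 and 11.47 on the deficient arrays. Every deficient array was above both controls (difference 0.43, SE 0.12, adjusted p = 0.126). Rrp1b, a nucleolar protein that binds chromatin as well, differed by 0.52 (SE 0.17, adjusted p = 0.174), with all 3 probe sets higher.

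Other large subunit factors had smaller differences. Nip7, which acts in large subunit maturation, read 10.66 and 10.96 on the control arrays and 10.83, 10.81 and 10.79 on the deficient arrays, so that all deficient arrays lay between the 2 controls (difference -0.00, SE 0.13, adjusted p = 0.996). Ebna1bp2, Ppan, Wdr12 and Nop2 had differences of 0.04, 0.06, 0.09 and 0.10, and each of these 4 values was below 0 without control 1. Ebna1bp2 had 2 further probe sets, both dimmer than the median, which differed by -0.50 and -0.22. On both, every deficient array lay below both controls. The proteins of Wdr12, Bop1 and Pes1 form 1 complex, PeBoW. Bop1 read 9.82 and 10.30 on the control arrays and 10.57, 10.25 and 10.35 on the deficient arrays; its groups overlapped through control 2 and the difference was 0.33 (SE 0.18, adjusted p = 0.416), against -0.14 on a probe set near the median brightness. Pes1 differed by 0.17. Wdr12 had a second, dimmer probe set with a difference of 0.55 and groups that did not overlap, so the gene's value depends on the probe set. Nop16 read 8.90 and 9.19 on the control arrays and 9.21, 9.20 and 9.29 on the deficient arrays, with a difference of 0.19, against -0.15 on its dimmer probe set. Rrs1, Gnl2 and Noc2l differed by 0.28, 0.29 and 0.32.

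Odc1, ornithine decarboxylase, makes polyamines and is a MYC target, not an assembly factor. It read 12.17 and 12.28 on the control arrays and 12.60, 12.44 and 12.50 on the deficient arrays. The groups did not overlap, the difference was 0.28 (SE 0.11, adjusted p = 0.251), and all 3 probe sets had higher means.

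**Figure D4:**
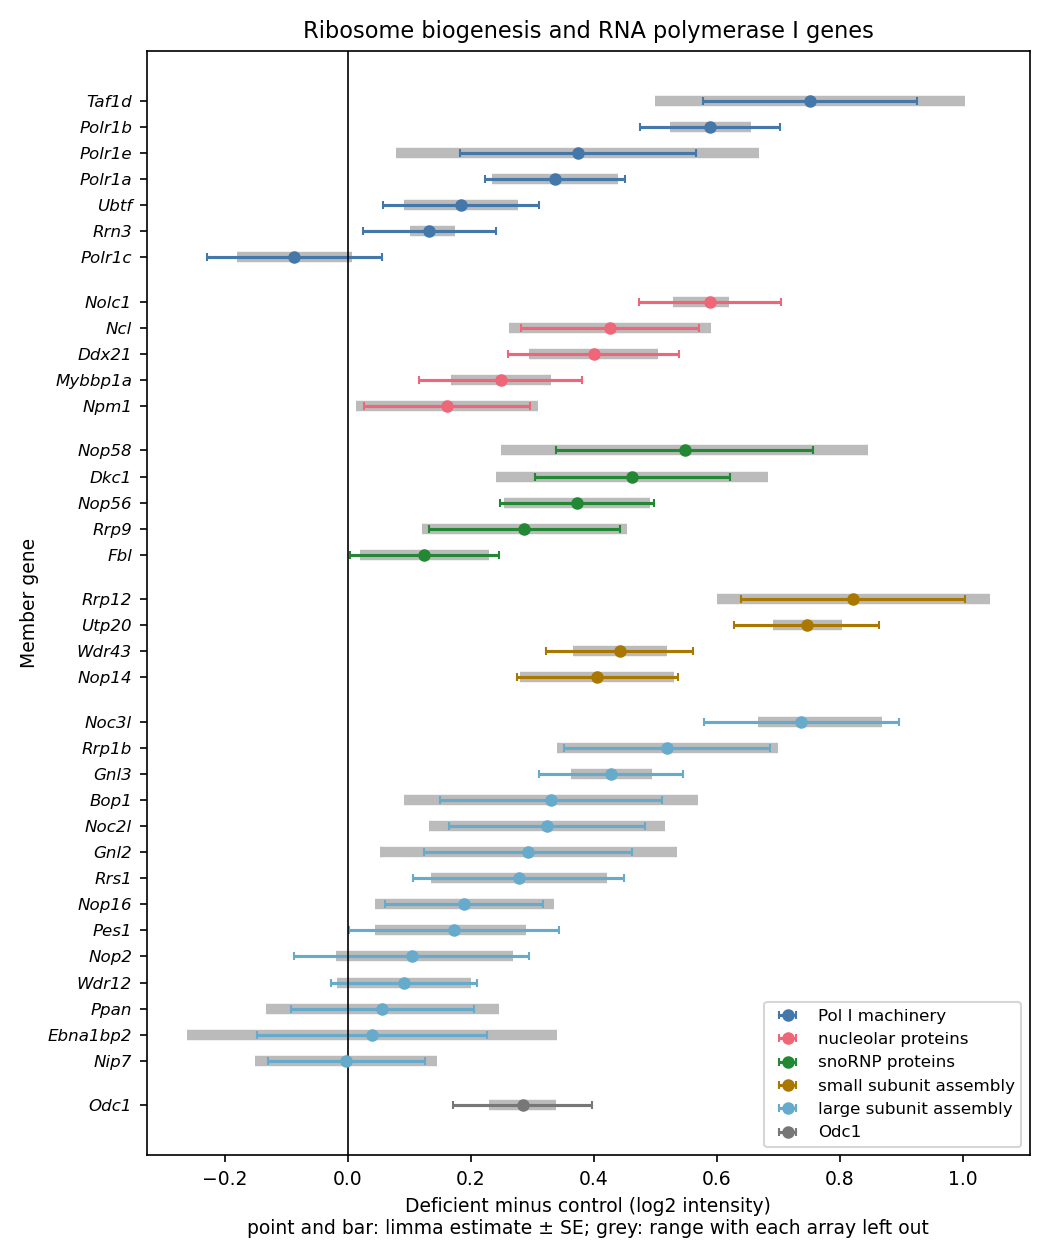
Difference of each ribosome gene, deficient minus control in log2 intensity (horizontal axis), with genes in rows grouped by role; points and thin bars are the limma estimate ± SE over 5 arrays, and grey bars span the 5 fits with 1 array left out. Rrp12, Taf1d, Utp20 and Noc3l lie farthest to the right, and Polr1c and Nip7 lie at or below 0.

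The 6 genes with an adjusted p under 0.1 (limma) were Utp20, Polr1b, Nolc1, Noc3l, Rrp12 and Taf1d, necessarily those with the smallest p. The share of all genes under 0.1 is not given, but Taf1d, the last of these, ranked 939 of 18193 genes by p. The 6 genes come from every role but the snoRNPs and Odc1. With 1 array left out, their differences all stayed above 0, and the lowest was 0.50, for Taf1d. The same arrays picked these genes, so this is no separate support. Of the 36 genes, 30 had a difference above 0 in all 5 of these fits, and the share of all genes is not given.

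Other genes of the pathway, outside the 36, were compared in the same fit. Of 132 listed genes 129 were measured. Of these, 96 (74.4%) had higher means, against 48.1% of all genes, and the median difference was 0.14. At an unadjusted p under 0.05, 25 (19.4%) were higher, against 8.79% of all genes and 13.2% of the brighter genes, and 4 were lower, against 9.86% of all genes. Past the adjusted threshold 2 of 129 rose, against 0.830% of all genes. These were Esf1, a nucleolar small subunit factor, with 8.60 and 8.85 on the control arrays and 9.65, 9.67 and 9.53 on the deficient arrays (difference 0.90, SE 0.13, adjusted p = 0.0322), and Pelp1, which takes part in large subunit maturation (difference 0.77, SE 0.13, adjusted p = 0.0444). Other Esf1 probe sets differed by 0.72 and, on one dimmer than the median, by 0.08. The Pelp1 value rests on 1 bright probe set, and another, dimmer than the median, differed by -0.40. Neither gene passed with any array left out. The pathway median was 0.06 without control 1 and 0.25 without control 2.

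By role, the other small subunit genes had a median of 0.21 (35 of 46 higher) and the other large subunit genes 0.17 (33 of 40 higher). After Esf1, the smallest p-value (limma) among these small subunit genes belonged to Nol10, a processome protein gene (difference 0.63, SE 0.11, adjusted p = 0.0574). After Pelp1, the smallest among these large subunit genes belonged to Urb2, an assembly factor (difference 0.84, SE 0.16, adjusted p = 0.0624). Of the snoRNP proteins and their assembly factors, 9 of 11 were higher (median 0.08), led by Naf1, an assembly factor of H/ACA particles (0.57), and Shq1, a dyskerin chaperone (0.40). Of the exosome, the nuclease complex that trims precursor RNA, 10 of 13 were higher (median 0.13), with 0.31 for its nuclease gene Dis3 and 0.26 for Exosc1.

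The other RNA polymerase I genes went both ways. Of 8, 5 had higher means, with a median of 0.03. Cd3eap, which encodes a subunit of the enzyme, read 7.02 and 7.25 on the control arrays and 7.72, 7.65 and 7.51 on the deficient arrays, and Znrd1, which encodes another, read 10.69 and 10.80 on the control arrays and 10.51, 10.09 and 10.31 on the deficient arrays. Neither pair of groups overlapped, with differences of 0.49 (SE 0.13, adjusted p = 0.116) and -0.44 (SE 0.15, adjusted p = 0.199) in opposite directions. RNA polymerase III makes 5S ribosomal RNA and transfer RNA. Of its 11 measured genes, 4 had higher means, with a median of -0.11, and the smallest p-values were those of Polr3gl (difference -0.47, SE 0.14, adjusted p = 0.151) and the initiation factor gene Bdp1 (difference 0.50, SE 0.16, adjusted p = 0.182).

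Myc itself read 11.09 and 11.38 on the control arrays and 11.98, 11.75 and 11.71 on the deficient arrays. The groups did not overlap and the difference was 0.58 (SE 0.15, adjusted p = 0.111). Of 10 genes of the MYC network, Myc included, 3 had higher means, the median was -0.20, and 0 passed the adjusted threshold (limma). At an unadjusted p under 0.05, 2 were higher, against 8.79% of all genes, and 2 lower, against 9.86%. The 3 control probe sets for 18S ribosomal RNA, which report carry-over of that RNA into the labelled material and are no measure of its synthesis, had a mean of 10.93 and 10.92 on the control arrays and 10.39, 10.09 and 10.21 on the deficient arrays. Every deficient array was lower, and the difference was -0.69 (exact permutation test, two-sided, p = 0.1, the smallest that 2 against 3 arrays can give). The 3′ minus 5′ signal, a measure of RNA integrity, was 4.57 and 4.71 in controls and 4.67, 4.45 and 4.87 in deficient cells for Gapdh, and 3.16 and 3.12 against 3.40, 3.53 and 3.34 for beta-actin. The part of these RNA measures in the differences above was not tested.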

How the data were processed

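Biotinylated cRNA from total RNA of sorted KLS cells was measured on an Affymetrix platform, as the labels describe. Deposited was 1 intensity for each probe set on each array (6.96 to 31249), computed by the authors with RMA, per the submitters' processing notes; the values were taken as linear, and log2 was computed here. RMA forces arrays to a common distribution, so a shift of all transcripts would not be seen, and dim differences are compressed. Neither the RMA program nor a role of the omitted hybridisation in it is given in the sources used here. The number of arrays limits the precision. All 5 columns matched a sample. In the platform annotation, 34945 probe sets had 1 symbol, 932 several and 9160 none listed.

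R 4.3.3 and limma 3.58.1 gave the differences (lmFit and eBayes, two-sided, without covariates) over 45037 probe sets, leaving out 64 controls, and over 18193 genes. P-values were adjusted by Benjamini-Hochberg across all features fitted, with a threshold of 0.05, and the fit was tested on simulated data. Adjusted p-values in the text are from the fit over genes unless stated. The genes and lists were chosen with earlier results of these data known. Named were members passing the threshold, in each role the 2 with the smallest and the 1 with the largest p, those whose brighter probe sets differ in sign, and 2 genes of each further list; other members are given by their difference, and the marker, promoter-site and control names follow their lists (the 3 dividing-cell genes named are those that passed). Alternatives were normalization, filters, eBayes settings, array weights, thresholds, a replicate block and each array left out.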

Additional observations from a re-analysis of the deposited data

How the results depend on the processing

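With 1 array left out in turn (limma), the count of members called fell from 1 to 0 in each of the 5 fits, as did that of other pathway genes from 2 to 0; 0 to 0 member probe sets were called, 8 to 19 member genes were higher at an unadjusted p under 0.05, the member median ran from 0.24 to 0.47, and the 18S difference from -0.77 to -0.62. Fewer arrays also lower the power of these fits. A replicate block over the 4 arrays numbered 1 and 2 called 0 member genes and 0 other pathway genes, with 10 members higher at an unadjusted p under 0.05 (limma). The share of all genes in that block fit is not given. Same-numbered arrays did not deviate together (correlations of -0.05 and -0.02). With 2 controls both correlations use the same control contrast, so they cannot settle whether the arrays were paired. The numbers were not taken as pairs. Leaving out dim probe sets called 1 member probe set (of Dkc1), and an intensity trend in eBayes called 2 (of Dkc1 and Utp20). Averaging a gene's probe sets called 2 members, Utp20 and Polr1b, and 1 other pathway gene, Nol10. Esf1 was then at 0.56 (limma, adjusted p = 0.0780) and Pelp1 at 0.18 (adjusted p = 0.524). Quantile normalization applied again called Esf1 and Nol10 but not Pelp1 (limma, adjusted p = 0.0501). Cyclic loess, and leaving out _x_at and _s_at probe sets, each called 1 other pathway gene, Esf1. Under the latter Pelp1 was read from its other probe set and reversed to -0.40. At an adjusted p under 0.1 (limma), 4 member probe sets, 6 members and 8 other pathway genes passed. The shares of all probe sets and all genes at that threshold are not given, so these counts cannot be set against a background. Except where named, the cause of these changes was not tested. Utp20 was called under each normalization, filter, eBayes setting and array weighting run, and the member median stayed above 0 under every alternative run. With 1 array left out, 30 of the 36 members had a difference above 0 in every fit, and the share of all genes is not given. Ebna1bp2, Ppan, Wdr12 and Nop2 were at -0.26, -0.13, -0.02 and -0.02 without control 1.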
